A study of Rattus norvegicus with 5 samples.

Results

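Collagens and the matrix genes that accompany them in connective tissue were followed in the rat parotid gland, the serous salivary gland beside the ear, during the hour after isoproterenol. The genes were chosen by name. They comprised every collagen chain gene on an Illumina bead array and 23 further names of matrix proteins, their processing enzymes and mesenchymal markers. A total of 47 probes, 1 for each gene, carried such a symbol, and Fbln2 had no probe under its name. Of these, 37 probes were above background (detection p-value under 0.01) on at least 1 of 5 arrays and form the set described here, out of 10793 probes tested and 22517 on the array. The set held 17 of the 25 collagen probes and 20 other genes. The selection used detection but no difference between groups, though the genes were chosen with earlier results of these data known. Of the 37 probes, 29 were above background on all 5 arrays and 8 on fewer.

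All rats were male Sprague-Dawley animals 2 to 3 months old, and total RNA of the parotid gland of each was hybridised to 1 array. The control group received saline by intraperitoneal injection (n = 2 rats). Isoproterenol, a synthetic agonist of beta-adrenergic receptors, was given by the same route at a dose the labels write as 20 mg per g body weight, a unit that is in doubt, and 1 rat each was killed at 10, 30 and 60 min. Neither the interval between saline and death nor the time of day was given in the sources used here, and an effect of isoproterenol cannot be told apart from handling or from a difference between single rats.

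The connective tissue of a salivary gland forms its capsule, the septa between lobules and a thin layer around acini, ducts and vessels. Fibroblasts make most of its fibrillar collagen, elastic fibres and proteoglycans, while basement membranes of type IV collagen and laminin lie beneath epithelium and endothelium. Collagen chains are assembled in the endoplasmic reticulum, trimmed by propeptidases outside the cell and cross-linked by lysyl oxidase.

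The arrays each detected 9095 to 9459 probes, and no arrays held identical values. Control 1 and the 30 min rat carried far more skeletal muscle RNA than the other rats, with summed intensities over 13 muscle markers of 54554 and 55310, against 1467 in control 2, 1476 at 10 min and 6631 at 60 min. Summed red blood cell markers (7 genes) stood at 38474 and 34651 in the controls, then at 8975 in the 10 min rat, with 24312 and 28965 at 30 and 60 min. The matrix genes differed little between the controls: the absolute difference had a median of 0.16 on the log2 scale, near the 0.19 over all tested probes. It reached 0.73 for Timp1, and 0 of the 37 differed by 1 or more (2.17% of all probes did). Among the 8 acinar markers, Amy1 (amylase) stood at 15.05 and 15.09 in the controls and the fibroblast markers Thy1, Twist1, Twist2 and Tcf21 were not above background on any array.

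Matrix transcripts were lower in the isoproterenol rats than in both controls, and this held at each time. In 32 of the 37 genes all 3 isoproterenol rats lay below both controls, and in 0 genes did they lie above both. Over all tested probes the share lying below was 16.9%. Some of the 37, such as Col5a3 and Col7a1, were above background in controls alone and so could hardly lie elsewhere. Of the 29 genes above background on every array 27 lay below both controls, against 16.8% of all such probes. The 5 exceptions were Col11a2, Col18a1, Col27a1, Col4a4 and Timp2. The median log2 difference from the control mean was -1.37 at 10 min, -1.05 at 30 min and -1.06 at 60 min, against 0.03, -0.03 and -0.08 over all tested probes. These 3 differences share their controls. In whole-gland RNA, fewer connective tissue cells and less matrix RNA per cell cannot be told apart.

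**Figure D1:**
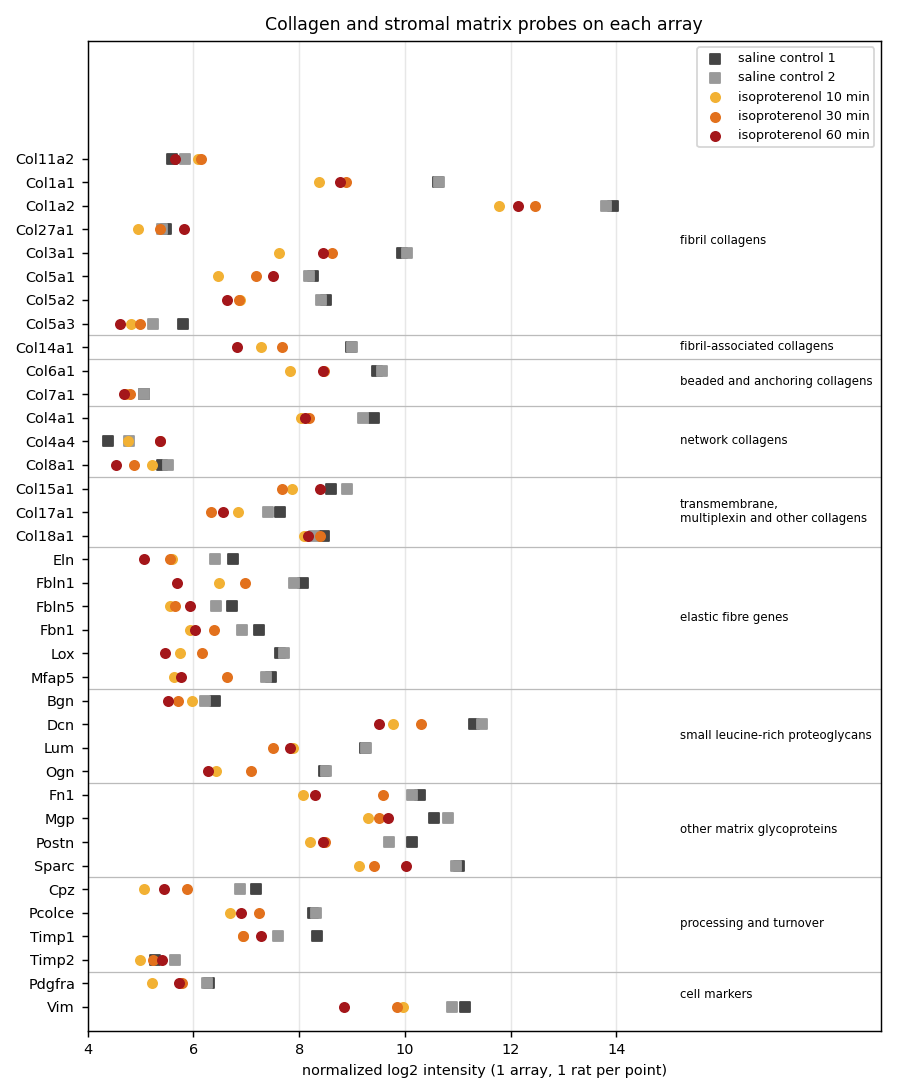
Normalized log2 intensity (horizontal axis) of the 37 collagen and stromal matrix probes, with 1 point for each rat: grey squares for the 2 saline controls, circles for isoproterenol at 10, 30 and 60 min. In 32 rows all circles lie to the left of both squares, while Col11a2, Col18a1, Col27a1, Col4a4 and Timp2 overlap.

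By limma, with Benjamini-Hochberg adjustment over all 10793 probes, 24 of the 37 genes fell at 60 min and 0 rose. Of all tested probes 11.4% were called lower and 13% higher at that time. Of the 29 genes above background on every array 21 fell, where 12.7% of all such probes did. Among those above background in the 60 min rat the falls ranged from 1.97-fold (Col17a1) to 4.90-fold (Fbln1), and adjusted p over the 24 lay between 0.0281 and 0.0394. In 22 of the 24 the fall was smaller under each of 3 other treatments of background (uncorrected, an offset of 50, the authors' values), and for Cpz, Eln, Fbln1, Lox and Mfap5 it shrank by more than 1.5 times under at least 1 of them, while the direction held in all 24. At 10 min none of the 37 passed, with adjusted p from 0.180 to 0.931 (0% of all probes were called lower and 0.0278% called in either direction, all of them higher), although 28 had an unadjusted p under 0.05 (6.07% of all probes), and 25 were at least 1 below the control mean and outside the controls (1.86% of all probes). At 30 min none passed either (adjusted p from 0.207 to 0.984, with 0% of all probes called), 30 had an unadjusted p under 0.05 (19.8% of all probes), and 23 were at least 1 lower (2.48% of all probes), a count that was 14 under each of those 3 treatments. The same size rule was met by 20 at 60 min (9.06% of all probes). In the other direction 0 of the 37 were at least 1 above control at any time, against 0.324%, 4.26% and 11.9% of all probes at 10, 30 and 60 min. Each time is a single rat, so the test takes its spread from the controls and from a prior over all probes, and assumes that the lone rat varies as the controls do. Without the filter on dim probes no gene of the array passed at 60 min, and the smallest adjusted p among the 37 was then 0.0686.

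**Figure D2:**
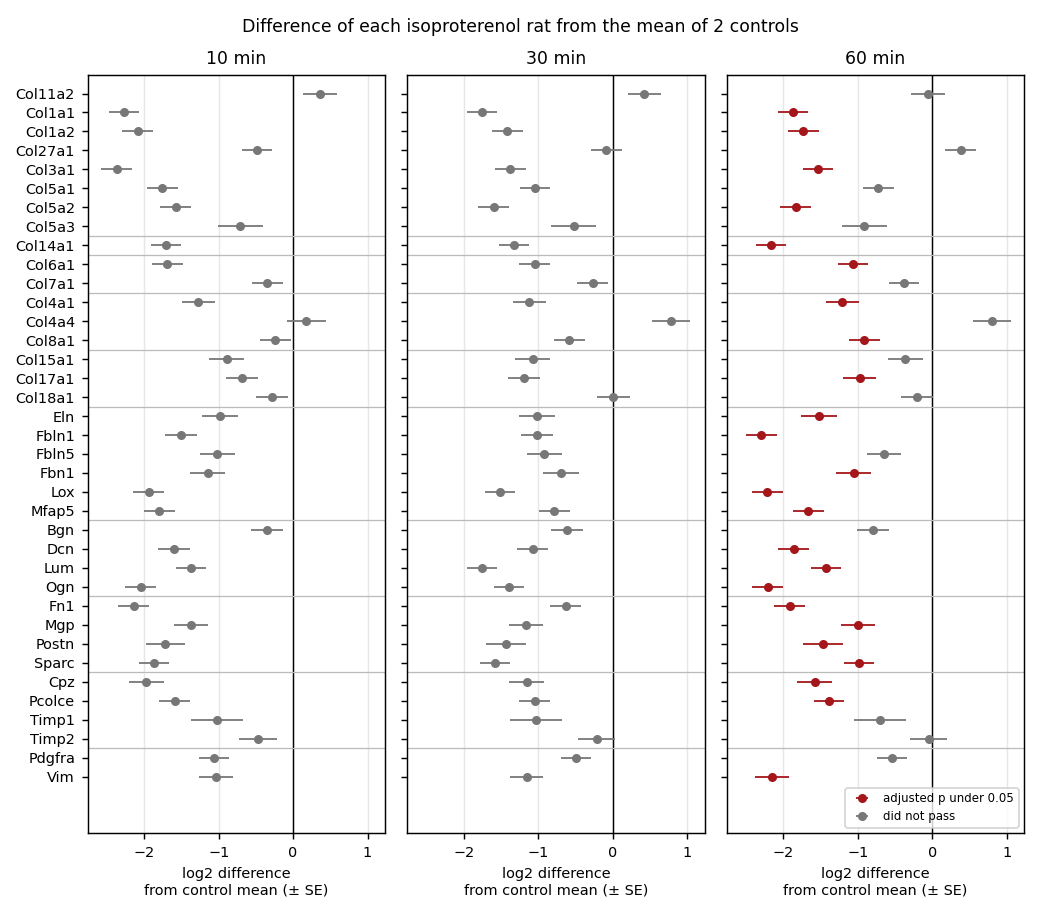
Log2 difference of each gene from the mean of the 2 controls (horizontal axis, with the standard error from limma) in the rats at 10, 30 and 60 min. Red points passed an adjusted p of 0.05, which 24 genes did at 60 min and none at 10 or 30 min.

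**Figure D3:**
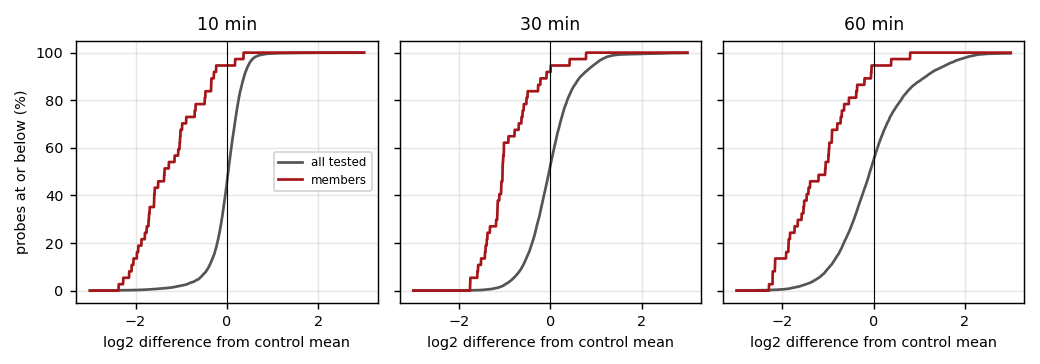
Cumulative share of probes (vertical axis, percent) at or below a given log2 difference from the control mean (horizontal axis), for the matrix genes (red, 37 probes) and all tested probes (grey, 10793 probes). The red curves lie to the left at each time, with medians of -1.37, -1.05 and -1.06 against 0.03, -0.03 and -0.08.

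Promoter sequences show what lies upstream of genes that moved together and of one that did not. RefSeq promoters (build GRCr8, 250 bases before to 50 after the annotated start) were matched for 26 of the 37 genes, and 5 are printed 5′ to 3′: a fibril collagen, a beaded collagen, a proteoglycan and the intermediate filament gene Vim, all called lower at 60 min, and Col18a1, which stayed near its controls. Capitals mark motif matches on either strand. The motifs were the CCAAT box, the TATA box spelled TATAAA, the GC box spelled GGGCGG, the AP-1 motif spelled TGANTCA and the cAMP response element spelled TGACGTCA. None of these motifs contains another.
Col1a2 promoter (chr4:33518307-33518606, + strand): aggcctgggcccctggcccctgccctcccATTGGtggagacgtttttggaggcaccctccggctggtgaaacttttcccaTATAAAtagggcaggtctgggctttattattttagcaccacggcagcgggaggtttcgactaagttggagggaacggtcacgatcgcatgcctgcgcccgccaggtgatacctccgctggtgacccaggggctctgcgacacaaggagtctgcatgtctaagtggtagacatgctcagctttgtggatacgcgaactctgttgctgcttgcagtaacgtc
Col6a1 promoter (chr20:11905440-11905739, + strand): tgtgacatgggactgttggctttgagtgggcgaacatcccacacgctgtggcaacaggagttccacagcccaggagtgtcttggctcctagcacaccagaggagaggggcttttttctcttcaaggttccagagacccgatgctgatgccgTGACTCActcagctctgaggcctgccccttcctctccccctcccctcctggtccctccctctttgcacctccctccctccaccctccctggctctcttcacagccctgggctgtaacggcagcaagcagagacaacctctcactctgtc
Lum promoter (chr7:34245456-34245755, + strand): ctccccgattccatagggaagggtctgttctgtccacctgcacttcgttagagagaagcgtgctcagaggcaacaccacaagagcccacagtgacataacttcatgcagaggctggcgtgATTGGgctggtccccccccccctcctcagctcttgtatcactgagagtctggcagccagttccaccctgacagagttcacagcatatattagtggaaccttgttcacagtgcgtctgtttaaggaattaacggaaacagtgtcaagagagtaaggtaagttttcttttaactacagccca
Vim promoter (chr17:81577011-81577310, + strand): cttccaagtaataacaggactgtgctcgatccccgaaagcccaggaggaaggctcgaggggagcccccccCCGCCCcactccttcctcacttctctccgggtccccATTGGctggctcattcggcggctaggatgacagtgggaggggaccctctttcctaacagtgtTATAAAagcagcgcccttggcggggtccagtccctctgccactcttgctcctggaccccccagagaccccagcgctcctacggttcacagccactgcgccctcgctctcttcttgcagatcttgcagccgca
Col18a1 promoter (chr20:11473395-11473694, + strand): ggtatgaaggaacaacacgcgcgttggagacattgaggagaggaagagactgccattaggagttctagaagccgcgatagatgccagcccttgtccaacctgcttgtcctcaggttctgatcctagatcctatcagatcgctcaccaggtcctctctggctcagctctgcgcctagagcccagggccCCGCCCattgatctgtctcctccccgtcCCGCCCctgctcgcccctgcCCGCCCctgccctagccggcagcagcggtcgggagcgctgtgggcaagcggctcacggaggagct
The Col1a2, Lum and Vim windows each hold 1 CCAAT match, at 221, 130 and 144 bases upstream of the annotated start. The Col1a2 window also holds TATAAA at 170 bases upstream, and the Vim window TATAAA at 82 and GGGCGG at 180. That of Col6a1 holds an AP-1 match 99 bases upstream, and that of Col18a1 holds 3 GGGCGG matches and none of the other motifs. CCAAT occurred in 9 of the 26 matched promoters (34.6%), against 37.5% of all 33469 promoters of the same length. TATAAA occurred in 5 (19.2%, against 14.2%), GGGCGG in 13 of 26 (against 33.1%) and TGANTCA in 2 (7.69%, against 7.33%). The cAMP response element occurred in 0 of 26 and in 1.83% of all promoters. These matches describe letters in a window and not sites in use.

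Fibril-forming collagens give connective tissue its tensile strength, and types I and III make most of the fibrils. Col1a1, the alpha1 chain of type I, stood at 10.63 and 10.65 in the controls, then at 8.37, 8.89 and 8.77 at 10, 30 and 60 min on the log2 scale. Col1a2, the partner chain, stood at 13.94 and 13.81 in the controls, then at 11.78, 12.46 and 12.14. Col3a1, the single chain of type III, stood at 9.94 and 10.04 and then at 7.62, 8.62 and 8.46. In all 3 genes the 10 min rat was the lowest and the groups lay more than 1 log2 unit apart. At 60 min Col1a1 was 3.64-fold lower (log2 difference -1.87 ± 0.20, SE), Col1a2 3.32-fold and Col3a1 2.90-fold, each with an adjusted p of 0.0281. At 10 min the same genes were 4.84-fold, 4.25-fold and 5.18-fold lower without passing (adjusted p = 0.180, 0.194 and 0.180). These 3 calls at 10 min were made when background was left uncorrected or when the prior variance followed intensity. Of all 10793 probes 5 and 9 were called lower under those settings.

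Type V collagen co-assembles with type I and limits fibril diameter. Col5a2 stood at 8.51 and 8.42 in the controls, then at 6.88, 6.86 and 6.63 in the isoproterenol rats, so it was near its lowest level from 10 min on and fell 3.56-fold at 60 min (adjusted p = 0.0281). Col5a1 stood at 8.26 and 8.18 and then at 6.46, 7.18 and 7.50. Col5a1 was 3.38-fold below control at 10 min and 1.65-fold at 60 min, where it did not pass (adjusted p = 0.0625). Whether Col5a1 and Col5a2 differ in course was not tested. Col5a3, a minor chain, was above background in the controls alone and was at least 1.33-fold lower at 60 min, a bound set by the dimmest detected probe on that array (adjusted p = 0.0862). Col11a2, best known from cartilage, stood at 5.60 and 5.84 and at 6.08, 6.14 and 5.66, overlapping its controls. Col27a1 was the one fibril collagen on opposite sides of the controls (5.48 and 5.41) at 10 min (4.96, not above background) and 60 min (5.82). Neither value of Col27a1 passed (adjusted p = 0.850 and 0.225), nor did the difference between those rats (adjusted p = 0.0858).

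Collagens that sit on fibrils or form finer networks did not all pass at 60 min. Col14a1, a fibril-associated collagen that bridges neighbouring fibrils, had closely matched controls, 8.989 and 8.995, and stood at 7.29, 7.67 and 6.83, a 4.48-fold fall at 60 min (adjusted p = 0.0281). Col6a1, a chain of the beaded microfibrils around cells, stood at 9.48 and 9.56 and at 7.83, 8.47 and 8.46, a 2.09-fold fall (adjusted p = 0.0307). Both lay clear of their controls in every isoproterenol rat. Col7a1, which anchors epithelial basement membranes, was above background in control 2 alone (5.07) and stood at 4.69 at 60 min (adjusted p = 0.221).

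Type IV chains form the basement membrane network. Col4a1, the widespread chain, stood at 9.41 and 9.22 and at 8.04, 8.20 and 8.11, nearly level across the hour, and was 2.31-fold lower at 60 min (adjusted p = 0.0294). Col4a4, known chiefly from kidney, was not above background in either control or at 10 min and stood at 5.36 and 5.38 at 30 and 60 min, at least 1.25-fold above control at 60 min (adjusted p = 0.0813). Col8a1, a short-chain collagen of vessel walls, stood at 5.40 and 5.52 and at 5.22, 4.88 and 4.54. It was called lower (adjusted p = 0.0392) but was not above background at 30 or 60 min, so that its fall is bounded at no less than 1.27-fold, and it was not called when background was left uncorrected, when the offset was 50 or in the authors' values.

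Col15a1 and Col18a1 are multiplexins, basement membrane collagens that carry heparan or chondroitin sulfate chains, and neither passed at 60 min. Col18a1 stood at 8.48 and 8.28 and at 8.09, 8.39 and 8.17, a difference of -0.20 ± 0.22 (SE) at 60 min that did not pass (adjusted p = 0.523). Col15a1 stood at 8.60 and 8.90 and at 7.86, 7.68 and 8.39, lowest at 30 min and closest to its controls at 60 min (adjusted p = 0.303). Col17a1, a transmembrane collagen of epithelial hemidesmosomes, stood at 7.63 and 7.42 and at 6.84, 6.34 and 6.55 and fell 1.97-fold at 60 min (adjusted p = 0.0384). As a whole 9 of the 17 collagens fell at 60 min, with a median of -0.92, and 15 of the 20 other genes, with a median of -1.45. Over all tested probes 11.4% were called lower, and the median was -0.08. Not above background on every array were the collagens Col27a1, Col4a4, Col5a3, Col7a1 and Col8a1 and the other genes Cpz, Eln and Timp2. Whether collagens and other genes differ was not tested.

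Elastic fibres consist of an elastin core on a scaffold of fibrillin microfibrils, linked by fibulins. Fbln1 (fibulin 1) stood at 8.07 and 7.91 in the controls, then at 6.48, 6.97 and 5.69. Its 4.90-fold fall at 60 min (log2 difference -2.29 ± 0.21, SE, adjusted p = 0.0281) was the largest of the set on this scale. In the authors' values it was 2.90-fold, below the 4.32-fold of Vim. Lox, the lysyl oxidase that cross-links collagen and elastin, stood at 7.64 and 7.72 and at 5.74, 6.16 and 5.47, 4.64-fold lower at 60 min (2.61-fold in the authors' values). Mfap5, a microfibril glycoprotein, stood at 7.47 and 7.37 and at 5.62, 6.64 and 5.76, with the 30 min rat well above the other isoproterenol rats, and its fall at 60 min was 3.17-fold (2.06-fold in the authors' values). Fbn1 (fibrillin 1) stood at 7.24 and 6.92 and at 5.93, 6.39 and 6.03. Eln (elastin) stood at 6.75 and 6.41 and at 5.60, 5.56 and 5.06, and was not above background at 60 min. Its bound of at least 2.77-fold lower at 60 min holds on the background-corrected scale only, since the authors' values gave 1.68-fold. Lox and Mfap5 (adjusted p = 0.0281), Eln (0.0284) and Fbn1 (0.0388) all fell. Fbln5, which guides elastic fibre assembly, stood at 6.72 and 6.43 and at 5.56, 5.66 and 5.93, below both controls throughout without passing (adjusted p = 0.102).

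Small leucine-rich proteoglycans bind collagen fibrils and set their spacing. Dcn (decorin) stood at 11.30 and 11.45 and at 9.78, 10.30 and 9.52, a 3.63-fold fall at 60 min. Ogn (osteoglycin) stood at 8.47 and 8.50 and at 6.44, 7.09 and 6.27, a 4.64-fold fall. Lum (lumican) stood at 9.25 and 9.26 and, unlike both, was lowest at 30 min (7.89, 7.50 and 7.83), with a 2.69-fold fall at 60 min. All 3 passed with an adjusted p of 0.0281. Bgn (biglycan) stood at 6.40 and 6.23 and at 5.97, 5.71 and 5.52, with a smaller difference of -0.80 ± 0.22 (SE) at 60 min that did not pass (adjusted p = 0.0557).

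The other matrix glycoproteins all fell at 60 min, and all 4 were lowest at 10 min. Fn1 (fibronectin, the adhesive protein on which collagen is laid down) stood at 10.29 and 10.13 and at 8.07, 9.58 and 8.30. It was 4.42-fold lower at 10 min, 1.55-fold at 30 min and 3.78-fold at 60 min, so its 30 min rat lay nearest to the controls, though below both. Sparc, a collagen-binding protein of connective tissue and basement membranes, stood at 11.02 and 10.97 and at 9.12, 9.41 and 10.01. Postn (periostin) stood at 10.14 and 9.70 and at 8.20, 8.49 and 8.45. Mgp (matrix Gla protein, an inhibitor of calcification) stood at 10.55 and 10.81 and at 9.30, 9.52 and 9.69. Adjusted p at 60 min were 0.0281 for Fn1, 0.0294 for Postn, 0.0333 for Sparc and 0.0394 for Mgp.

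Among processing and turnover genes the enhancer of procollagen cleavage fell and the metalloproteinase inhibitors did not pass. Pcolce, which enhances removal of the procollagen C-propeptide, stood at 8.27 and 8.31 and at 6.70, 7.24 and 6.90, and fell 2.62-fold (adjusted p = 0.0284). Cpz, a carboxypeptidase of the matrix, stood at 7.18 and 6.88 and at 5.06, 5.88 and 5.45, fell 2.98-fold (adjusted p = 0.0284; 1.86-fold in the authors' values) and was not above background at 10 min. Timp1, an inducible inhibitor, had the widest pair of controls (8.33 and 7.60) and stood at 6.94, 6.93 and 7.27 (adjusted p = 0.201 at 60 min). Timp2 stood at 5.27 and 5.64 and at 4.99, 5.24 and 5.41, overlapping its controls (adjusted p = 0.908).

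Of the mesenchymal markers, Vim (vimentin, the intermediate filament of fibroblasts and endothelium) stood at 11.13 and 10.89 and at 9.97, 9.85 and 8.86. It was 2.05-fold lower at 10 min and 4.45-fold lower at 60 min (adjusted p = 0.0281). Pdgfra, a growth factor receptor of fibroblasts, stood at 6.30 and 6.26 and at 5.21, 5.78 and 5.74, below both controls without passing (adjusted p = 0.112). The 10 probes left out as not above background were those of Col13a1, Col23a1, Col2a1, Col4a3, Col4a5, Col6a2, Col6a4, Col9a2, Mmp2 and Timp3. The Col7a1 probe lay just inside the detection limit, with a lowest detection p-value of 0.00757, and those of Col9a2 (0.0149) and Col23a1 (0.0225) just outside.

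Of the 37 genes 20 were lowest at 10 min, 4 at 30 min (Col15a1, Col17a1, Lum and Timp1) and 13 at 60 min. Over all tested probes 3821 were lowest at 10 min, 2355 at 30 min and 4617 at 60 min. In the direct comparison of the 60 and 10 min rats none of the 37, and none of the 10793 probes (0%), passed, while 8 of the 37 and 33.3% of all probes had an unadjusted p under 0.05. A difference in course among the genes is therefore not shown. Col5a1 was 1.03 ± 0.24 (SE) higher at 60 than at 10 min (adjusted p = 0.0710) and Sparc 0.89 ± 0.24 (adjusted p = 0.0825). Vim was lower at 60 than at 10 min by -1.12 ± 0.26 (adjusted p = 0.0716) and Fbln1 by -0.79 ± 0.25 (adjusted p = 0.104). With background left uncorrected Vim, Sparc and Col5a1 passed, in the authors' values Vim and Sparc, and at an offset of 50 Vim alone. Of all 10793 probes 1293, 853 and 772 passed under these settings in turn.

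**Figure D4:**
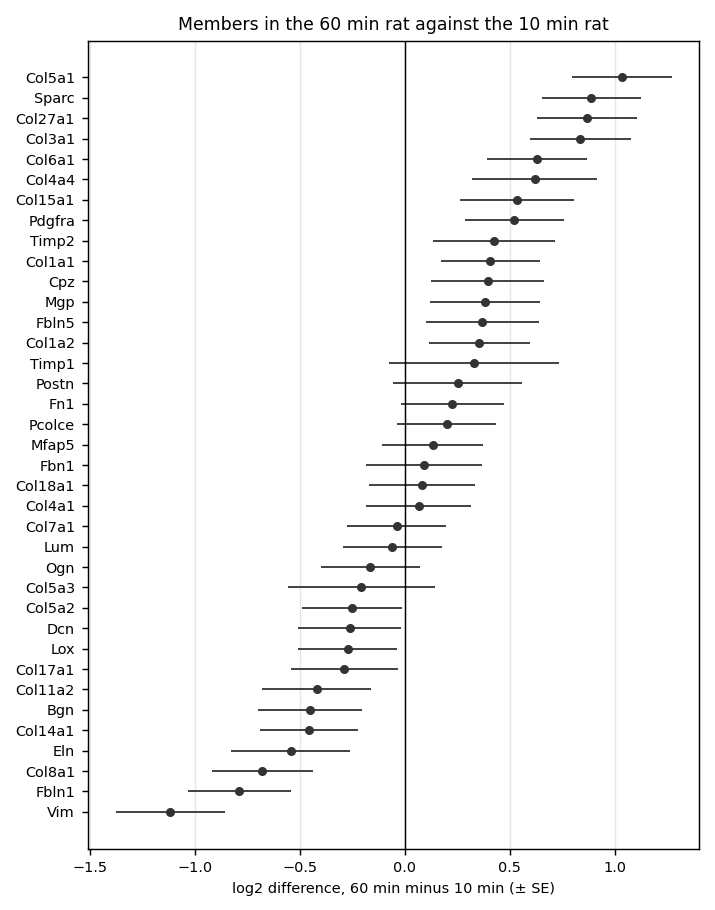
Log2 difference of the 60 min rat minus the 10 min rat (horizontal axis, with the standard error from limma) for the 37 genes, sorted. Values run from -1.12 for Vim to 1.03 for Col5a1, and none passed the adjusted threshold.

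When the 3 isoproterenol rats were taken as 1 group against the 2 controls, the median log2 difference of the 37 genes was -1.20, against -0.02 over all tested probes. No gene passed (0% of all probes), and the smallest adjusted p, 0.344, was shared by Col1a1, Col1a2, Col5a2, Lox, Lum and Postn. An unadjusted p under 0.05 was found for 30 of the 37 genes and for 9.41% of all probes.

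Other genes of collagen production and matrix turnover, counted from lists without the 37 genes, went both ways. Of 85 such genes measured, 27 were called lower and 11 higher at 60 min, where 11.4% and 13% of all probes were. Among 19 collagen biosynthesis genes 4 fell and 3 rose. Adamts2, the procollagen N-propeptidase, fell at least 5.22-fold on the background-corrected scale (adjusted p = 0.0281; 2.60-fold in the authors' values), while Serpinh1, the collagen chaperone HSP47, rose 3.42-fold (adjusted p = 0.0306) and Plod2, a lysyl hydroxylase, 3.24-fold (adjusted p = 0.0314). Serpinh1 stood at 7.61 and 8.31 in the controls, then at 8.42, 9.07 and 9.74. Plod2 stood at 8.59 and 9.28 and at 9.22, 9.97 and 10.63, and in both genes control 2 lay near the 10 min rat.

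Of 4 basement membrane genes 1 fell: Agrn (agrin) was 2.07-fold lower (adjusted p = 0.0483), and Smoc2 (-0.76) and Lamb2 (-0.74) did not pass. Of 13 matrix proteases and inhibitors 4 fell and 4 rose. The protease inhibitor gene Reck fell 3.26-fold (2.14-fold in the authors' values) and the membrane metalloproteinase gene Mmp14 2.61-fold, while the aggrecanase gene Adamts5 rose 2.81-fold. Of 14 TGF-beta and PDGF signalling genes 5 fell and 0 rose, led by Ltbp1 (3.44-fold), Pdgfrl (at least 2.52-fold) and Tgfbi (at least 2.32-fold). In the authors' values these folds were 2.01, 1.58 and 1.53, so the bounds hold on the background-corrected scale only.

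Of 16 matrix receptor genes 4 fell and 2 rose. The collagen-binding integrin gene Itga1 was 3.16-fold lower (2.03-fold in the authors' values) and the proteoglycan gene Sdc2 2.82-fold lower, whereas the collagen receptor gene Ddr2 was 3.03-fold higher. Of 19 further matrix and matricellular genes 9 fell and 2 rose. Ccdc80 fell 3.96-fold and Sparcl1, a relative of Sparc, 3.15-fold, while Omd (osteomodulin), of the proteoglycan family of Lum and Ogn, rose 3.05-fold. The list medians at 60 min ran from -0.96 in the last list to -0.08 in the proteases and inhibitors.

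Marker lists of cell types, from which the 37 genes were left out, moved in several directions. The fibroblast list names Dpt, Mfap4 and Pdgfrb, as do the matrix and signalling lists above, so their counts need not be separate. Of all tested probes 11.4% were called lower and 13% higher at 60 min. Fibroblast markers had summed intensities of 6039 and 6361 in the controls and of 2295, 3319 and 2351 at 10, 30 and 60 min, and 7 of 10 fell at 60 min while Cd34 rose. The fibroblast chemokine gene Cxcl12 stood at 9.17 and 9.20 and at 7.65, 8.12 and 7.47. Endothelial markers summed to 5307 and 4518 and to 3216, 3025 and 2100, and 5 of 7 fell, with Cdh5 and Tek not above background. Adipocyte markers summed to 8560 and 8409 and to 5055, 7538 and 3103, and 7 of 11 fell. Smooth muscle and myoepithelial markers summed to 2107 and 1750 and to 980, 1080 and 1149, and 2 of 5 fell.

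Lists outside the connective tissue and vessels also held genes called at 60 min, when 11.4% of all tested probes were called lower and 13% higher. Duct markers summed to 4044 and 3261 in the controls, then to 3102, 1928 and 1654, and 3 of 5 fell. Myeloid and mast cell markers summed to 1457 and 1124, then to 821, 779 and 654, and 2 of 6 fell. Lymphoid markers summed to 412 and 541, then to 650, 845 and 1492, and 1 of 5 rose. Schwann and nerve markers summed to 1488 and 1816, then to 1547, 2332 and 2854, with 2 of 6 higher and 2 lower. Such sums mainly follow the brightest genes of a list. At 60 min 4 of the 6 Schwann and nerve genes lay below the control mean, with a median log2 difference of -0.37 and a largest of 1.89. All 5 lymphoid genes lay above it, with a median of 0.61. The median log2 difference of the fibroblast list was -1.13 at 10 min and -1.39 at 60 min, that of the endothelial list -0.66 and -1.30 and that of the adipocyte list -0.66 and -1.16. Red blood cell markers were lowest in the 10 min rat, where 20 of the 37 matrix genes were also lowest. Hbb stood at 13.65 and 13.43 in the controls, then at 10.90, 12.87 and 13.31. Acinar markers summed to 116005 and 138303 in the controls and to between 129213 and 134211 after isoproterenol, near the top of the scale. At 60 min 1 of the 8 rose and 1 fell, with log2 differences over the list from -1.33 to 1.65. The part of tissue composition, blood content or dissection in the lower matrix levels was not tested.

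**Figure D5:**
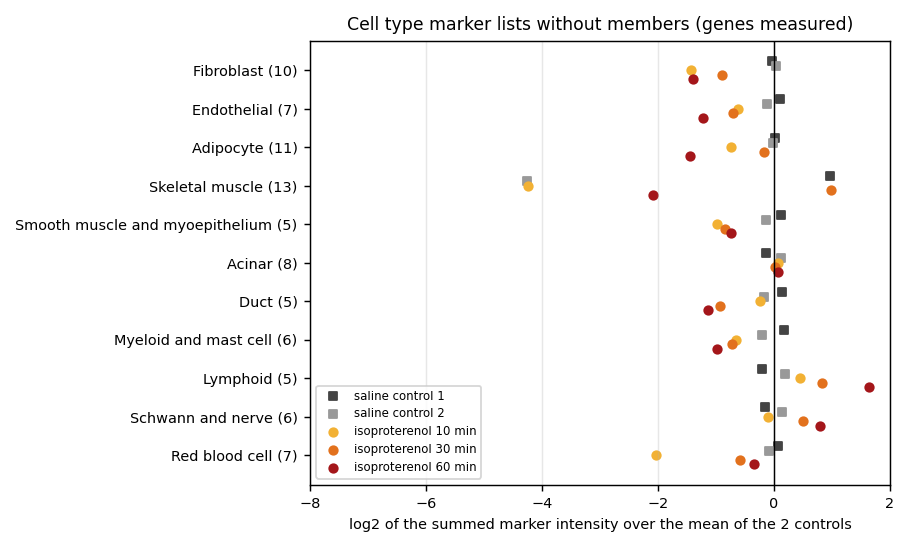
Log2 of the summed marker intensity on each array over the mean of the 2 controls (horizontal axis), for cell type lists without the 37 matrix genes, with the number of genes measured in brackets. Fibroblast markers lie below both controls in all 3 isoproterenol rats (2295 to 3319, against 6039 and 6361), red blood cell markers are lowest at 10 min, and skeletal muscle markers separate control 1 and the 30 min rat from the others.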

How the data were processed

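Total RNA of 5 parotid glands was amplified to biotin-labelled cRNA and hybridised to Illumina bead arrays, per the labels' protocols. For 22517 probes the authors deposited 1 linear intensity and 1 detection p-value per array. The sorted intensities of the arrays were nearly equal (median spread 0.133%), so they had been brought to the same quantiles, and no background had been subtracted (smallest value 43.1). A second deposited table holds processed log2 values in the same rank order, and the software behind both tables is not given in the sources used here. Gene symbols came from the platform annotation, which named 13787 probes.

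The neqc function of limma 3.58.1 (R 4.3.3) then applied normexp background correction by detection p-value, an offset of 16, quantile normalization and log2. Levels in the text are these values. An offset shrinks differences of dim probes. In 22 of the 24 genes called at 60 min the fall was larger here than under each of 3 other background treatments. Of the called genes of the other lists, 71 of 72 likewise had a larger difference here, so this is not particular to the matrix genes. Probes with a detection p-value under 0.01 on at least 1 array were fitted with 1 mean per group (lmFit, eBayes). The fit had 1 residual degree of freedom, from the controls, and its prior had 3.88 degrees of freedom and an SD of 0.186. A second model set the 3 isoproterenol rats against the 2 controls. All p-values are two-sided. Those called adjusted use the Benjamini-Hochberg method over 10793 probes. The exceptions are the settings without the filter (22517 probes) and with detection on at least 2 arrays (9821 probes). Alternatives varied the background correction, offset, filter, scaling and prior variance, or left out 1 rat. The rats are separate animals, per the labels. On simulated data the fit recovered the sizes put in, but the share of false calls was above the adjusted threshold, so calls near it are less secure than their adjusted p. A fold called "at least" sets a probe not above background at the dimmest detected probe of that array. Values on all 5 arrays are given for genes called at 60 min and for the 12 with the highest control mean, and other lists name the 3 genes with the largest difference at 60 min. The genes and lists were chosen with earlier results of these data known. Nothing says how the array slides were shared between rats, and the number of arrays limits precision.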

Additional observations from a re-analysis of the deposited data

How the results depend on the processing

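The call of 24 matrix genes as lower at 60 min, and of 0 as higher, rests on the filter on dim probes. With all 22517 probes tested the number lower was 0. It stayed at 24 under the other alternatives run: background left uncorrected, an offset of 50, the authors' values, detection on at least 2 arrays, median scaling, a robust prior variance and one that followed intensity. In the first 3 of these Col5a1 took the place of Col8a1, so that 23 genes were shared. Over all probes the count called lower at 60 min ran from 1220 to 1447 under the same 7 settings. The 1220 were out of 9821 probes detected on at least 2 arrays, and the other counts out of 10793. At 10 min 3 genes were called lower with background left uncorrected, and 5 when the prior variance followed intensity. Of all 10793 probes 5 and 9 were called lower then. In the comparison of 60 with 10 min, without background correction 1 was called lower and 2 higher, with an offset of 50 1 lower, and with the authors' values 1 lower and 1 higher. Of all 10793 probes 1293, 772 and 853 were called in either direction under these settings in turn. The cause of these changes was not tested.

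Median differences kept their sign under each alternative run. With background left uncorrected, at an offset of 50 and in the authors' values they were -1.13, -1.22 and -1.11 at 10 min, -0.84, -0.89 and -0.82 at 30 min, and -0.94, -1.07 and -0.92 for the 3 isoproterenol rats together. Under each of the 3 settings 14 genes, in place of 23, were at least 1 below control at 30 min. With 1 control left out the median at 60 min was -1.11 or -1.22, at 10 min -1.37 by either control and at 30 min -1.01 or -1.06. The 2-group model called 0 genes with any 1 rat left out. With 1 control left out the fits by time have no residual degrees of freedom, so that they give values with no test. No paired analysis was possible because the isoproterenol rats carry no replicate number shared with the controls. The count of genes below both controls cannot drop when an array is left out (32 to 34), so it says nothing of stability. Genes not above background on an array have only a bound there, which limits Col4a4, Col5a3, Col7a1 and Col8a1 most.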

Other observations

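The 11 genes of the collagen production and matrix lists that were called higher at 60 min shared a pattern between the controls that was singled out after its values were seen. In 11 of 11, among them Serpinh1, Plod2, Ddr2, Omd and Adamts5, control 2 stood above control 1, as it did in 5 of the 27 genes called lower. In 10 of the 11 the 30 min rat stood above both controls and the 10 min rat. Over the array, control 2 stood above control 1 in 86.7% of the 1403 probes called higher at 60 min and in 52.3% of all 10793 tested probes. Both the calls and this comparison use the controls, so the shares are given as a description.

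Cd34, a surface marker shared by fibroblasts and endothelium, went against the other fibroblast markers. Its controls measured 6.01 and 6.49, and the isoproterenol rats 6.09, 7.29 and 8.12 at 10, 30 and 60 min, a 3.64-fold rise at 60 min (adjusted p = 0.0284). Gsn (gelsolin) and Serping1, a complement inhibitor gene, both on the same list, fell 3.22-fold and 3.50-fold.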
